A study of Mus musculus with 21 samples.

Results

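The organic ion transporters examined here are the genes of the Slc22 family, the Slco family and the related pair Slc47a1 and Slc47a2. They were chosen by symbol alone, with the further condition of at least 1 raw read over 21 podocyte-fraction libraries. The files list 43 such genes, and 38 of the 27179 listed genes met both conditions. The 37 members described here are 23 of Slc22, 12 of Slco and the 2 Slc47 genes. Slc22a16, Slc22a20, Slco6b1, Slco6c1 and Slco6d1 had 0 reads in every library. Of the 37 members, 31 passed the filter on low counts and were tested. The other 6 (Slc22a14, Slc22a27, Slc47a2, Slco1a5, Slco1b2 and Slco1c1) held between 2 and 96 reads over all libraries, and no fold change is given for them.

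The libraries were mRNA-seq of kidney cortex digests enriched with antibodies to nephrin and magnetic beads, with 1 library per mouse. All mice were male wildtype C57BL/6J, so no allele separates the groups. The young group held 6 untreated mice of 4 months. The study states 5 control mice at that age, from the laboratory's tissue archive, and does not say whether the sequenced mice were among them. The saline group held 7 middle-aged mice of 19.5 months, and the NLRP3i group held 8 middle-aged mice of the same age that received the small-molecule NLRP3 inhibitor MCC950. MCC950 was given intraperitoneally in saline at 10 mg/kg, 2 times per week for 6 weeks from 18 months of age. The young group therefore differs from both other groups in age and injections together, and possibly in origin.

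Transporters of these families move organic anions, organic cations, carnitine, urate, steroid conjugates, prostaglandins and many drugs across plasma membranes. In the kidney they are best known from the proximal tubule, where Slc22a6 and Slc22a8 take up organic anions and Slc22a2 takes up organic cations from the blood side. Slc22a12 and Slc47a1 act on the urine side, the first in urate reabsorption and the second in proton-coupled cation efflux. Podocytes are not known as a major site of most of these genes, while the prostaglandin transporter Slco2a1 is a known gene of vascular endothelium.

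The labelled cell type was checked first. The 16 podocyte markers were all detected in all 3 groups, and their summed level ran from 983 to 2018 CPM (read counts scaled by library size and a TMM factor) in young libraries, from 416 to 718 in saline libraries and from 527 to 828 in NLRP3i libraries. The 16 proximal tubule markers were all detected too, and were the larger sum: 2459 to 8985 CPM in young, 2547 to 5798 in saline and 3714 to 10659 in NLRP3i libraries. Total depth was 27375870 to 36827823 counts in young, 45772937 to 84876399 in saline and 35440472 to 58247271 in NLRP3i libraries, of which 51.5% to 80.4%, 63.0% to 79.2% and 49.9% to 63.7% fell on mitochondrial genes in these groups. Young replicate 1 stood apart, with the highest proximal tubule sum of the young group (8985 CPM) and the highest level of most members, and values that moved most without it are given beside the results. In bulk samples such as these, fewer cells of a type and less RNA per cell cannot be told apart.

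Many members lie side by side in the genome. With RefSeq coordinates on GRCm38, 24 of the 37 members fell into 6 clusters in which neighbours were less than 300000 bases apart. The largest, at chr19:7673075-8628299, holds 8 members: Slc22a19, Slc22a26, Slc22a27, Slc22a28, Slc22a29, Slc22a30, Slc22a8 and Slc22a6. The chromosome 6 cluster holds the 6 Slco1 members over 799 kb, the chromosome 17 cluster holds Slc22a3 and Slc22a2 over 209 kb, and the chromosome 9 cluster holds Slc22a14, Slc22a13 and Slc22a13b over 62.2 kb. On chromosome 11 lie Slc22a5, Slc22a21 and Slc22a4 over 165 kb and, separately, Slc47a2 and Slc47a1 over 77.2 kb.

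Promoter windows from RefSeq (GRCm38.p6, 250 bases before to 50 after the transcript start) were on hand for 31 members, and not for Slc22a7, Slc22a13b, Slc22a21, Slc47a1, Slco3a1 and Slco5a1. In the chromosome 19 cluster, the 80 bases that end 30 bases before the start of Slc22a30 were set beside the 80 bases of each other promoter with the most identical letters, without gaps. The sequences below are shown because these 4 genes of the cluster rose in NLRP3i libraries and 3 of them are close copies of each other in these 80 bases. Each is written 5′ to 3′ on the gene's strand, ends before the transcript start and has the letters that differ from Slc22a30 in capitals.
Slc22a30, chr19:8405136-8405215, minus strand: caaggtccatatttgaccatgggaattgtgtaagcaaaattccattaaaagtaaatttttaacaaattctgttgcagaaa
Slc22a28, chr19:8132007-8132086, minus strand: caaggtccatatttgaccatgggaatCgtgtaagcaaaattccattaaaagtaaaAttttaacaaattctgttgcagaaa
Slc22a29, chr19:8218907-8218986, minus strand: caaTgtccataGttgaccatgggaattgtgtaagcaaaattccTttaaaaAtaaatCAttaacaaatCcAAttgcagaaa
Slc22a19, chr19:7711335-7711414, minus strand: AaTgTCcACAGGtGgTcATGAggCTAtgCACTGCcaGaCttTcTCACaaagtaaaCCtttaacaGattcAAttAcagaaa

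Slc22a28 was identical to Slc22a30 at 78 of the 80 positions and Slc22a29 at 71 of 80. Slc22a19 shared 43 of 80 letters. The other 4 members of the cluster (Slc22a26, Slc22a27, Slc22a8 and Slc22a6) shared between 28 and 33 of 80. These counts rest on the transcript start that was on hand for each gene. The windows of Slc22a29, Slc22a27 and Slc22a8 lie inside the RefSeq span of their gene, and another start would give another window. Such likeness is a description of the sequence, and no binding to these promoters was measured in these libraries.

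Several members also share transcript sequence, which limits how far reads can be assigned to 1 gene. Of all 50-base stretches in GENCODE transcripts, 53.9% of those of Slc22a28 and 34.3% of those of Slc22a30 occur in another gene's transcripts, mostly each other's. The share was 36.0% for Slc22a13, all of it with the transcribed pseudogene Slc22a13b, 28.7% for Slc22a29, 29.9% for Slc22a27, 26.3% for Slc22a5 and 22.0% for Slc22a21, the last pair sharing mainly with each other. Slc22a29 and Slc22a27 also shared mainly with each other. Slc22a12 shares 27.4% of its stretches with Nrxn2, a gene on the opposite strand whose exons cover 30.1% of its exon bases. How reads with several alignments and the strand were handled is not given in the sources used here, so the separate values of these genes are uncertain.

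The order of the members was read from young libraries, as CPM per kb of exon, the scale on which levels of different genes can be set side by side. Slc22a12 (URAT1) stood first with a mean of 94.1 CPM per kb (range 40.0 to 198), followed by Slc22a6 (OAT1) with 41.0 (14.8 to 87.5) and Slc22a8 (OAT3) with 31.4 (18.7 to 58.4). Slc22a18, an imprinted gene of uncertain substrate, followed with 27.0, Slc47a1 (MATE1) with 23.9, Slc22a5 (the carnitine transporter OCTN2) with 16.9 and Slc22a2 (OCT2) with 13.6. Each of these overlapped its neighbour in the order, as did every further pair of neighbours over the 36 members with an exon length, down to Slco1b2 and Slc22a14 with 0 reads in all young libraries. The leading Slco genes were Slco2b1 with 6.78 CPM per kb, Slco3a1 with 6.46, Slco1a6 with 6.23 and Slco1a1 with 4.74.

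**Figure D1:**
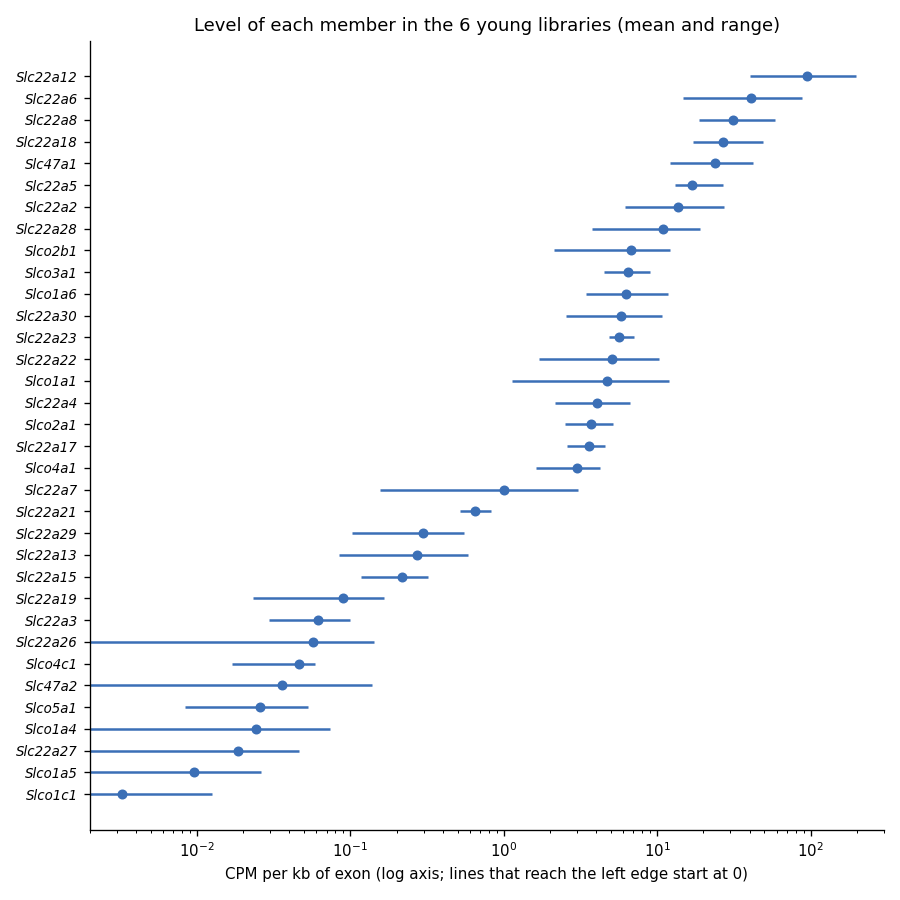
Levels of 34 members in the 6 young libraries, as mean CPM per kb of exon (points) with the range over libraries (lines) on a log axis; members with no young reads are left out, as is Slc22a13b, for which no exon length was on hand. The means run from 94.1 for Slc22a12 to 0.00325 for Slco1c1, and neighbouring ranges overlap throughout.

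The summed level of the 37 members was 649.9 to 1850.3 CPM in young libraries (median 944), 622 to 1191 in saline libraries (median 840.4) and 762 to 1779 in NLRP3i libraries (median 1268). Slc22a12, Slc22a6, Slc22a8 and Slc47a1 together took between 40.5% and 63.1% of that sum in each young library. The sum followed the proximal tubule markers from library to library. It was 20.0% to 26.4% of their summed CPM in young, 19.5% to 24.4% in saline and 16.1% to 20.5% in NLRP3i libraries. The part of tubule content in the members' levels was not tested beyond the fit with these markers as a covariate given with each comparison.

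**Figure D2:**
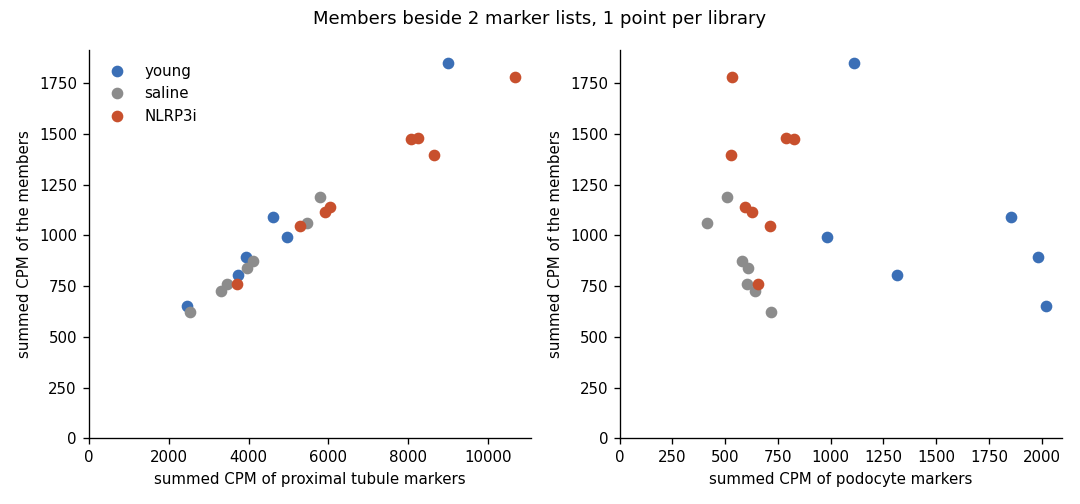
Summed CPM of the 37 members (vertical axis) against the summed CPM of 16 proximal tubule markers (left) and 16 podocyte markers (right), 1 point per library. The points of all groups lie along 1 band against the tubule markers, with young replicate 1 (8985 and 1850.3 CPM) and NLRP3i replicate 1 (10659 and 1779 CPM) at its upper end; no such band appears against the podocyte markers.

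The first comparison set the 7 saline libraries against the 6 young libraries and addressed the change with middle age. Here "with age" stands for saline against young, where age, injections and possibly origin differ together. Few members changed: 1 of 31 was called higher, where 12.2% of all 16377 genes tested were, and 2 of 31 were called lower, where 12.4% of all genes were (edgeR's quasi-likelihood test, Benjamini-Hochberg adjusted p under 0.05 over all genes tested). Slc22a21 rose, and Slco2a1 and Slc22a23 fell. The median log2 fold change was −0.18 over the 31 members and 0.02 over all genes tested. The 28 members not called ran from −0.78 (Slc22a7) to 1.47 (Slc22a26) on the log2 scale.

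Slco2a1, which carries prostaglandins into cells, had the clearest change. Its level was 33.9, 44.9 and 69.5 CPM (lowest, median and highest) in young libraries, 20.2, 26.3 and 32.1 in saline libraries and 16.1, 19.9 and 31.9 in NLRP3i libraries. Every saline library and every NLRP3i library lay below every young library, and Slco2a1 was the only member whose saline and young libraries did not overlap. The share of all genes tested whose groups did not overlap was not counted, here or in the later comparisons. Slco2a1 fell by 0.97 ± 0.17 (SE) on the log2 scale with age, to 0.512 of the young level (edgeR adjusted p = 0.000423, n = 6 and 7). In NLRP3i against young it fell by 1.27 ± 0.17, to 0.415 of the young level (edgeR adjusted p = 1.27e-05), and in NLRP3i against saline the difference was −0.30 ± 0.16 (adjusted p = 0.198).

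The summed level of the 9 endothelial markers fell with age, as Slco2a1 did. It was 460 to 812 CPM in young, 254 to 386 in saline and 209 to 415 in NLRP3i libraries, with no marker at 0. Of the 9 markers, 8 were called lower in saline against young. The mean of Plvap went the other way, from 26.5 CPM in young to 29.6 in saline libraries. With the mean log2 CPM of the podocyte markers, which fell with age too, as a covariate, the fold of Slco2a1 was −0.10 with age (edgeR adjusted p = 0.889). This score was 4.87 to 5.93 in young, 3.11 to 4.26 in saline and 4.01 to 4.75 in NLRP3i libraries. Young libraries overlapped neither other group in it, so a fit with it cannot tell the score from the group. Other marker sums fell as well: the mean in saline was 0.377 of young for podocyte, 0.478 for mesangial and 0.614 for collecting duct markers, beside 0.461 for endothelial ones. The other sums stood at 0.856 (proximal tubule), 0.995 (red blood cell), 1.13 (loop of Henle and distal tubule), 1.78 (T cell), 1.92 (macrophage) and 5.36 (B and plasma cell). The part of endothelial, mesangial or collecting duct content was not tested.

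Slc22a21, a carnitine transporter (OCTN3), had 1.88, 2.37 and 3.02 CPM in young libraries (lowest, median and highest) and 2.84, 3.29 and 4.15 in saline libraries. In 5 of 7 saline libraries it lay above every young library, with a fold of 1.45 (log2 0.53 ± 0.16, adjusted p = 0.0164). Slc22a23, an orphan member, had 31.1, 35.8 and 44.8 CPM in young and 22.0, 26.2 and 33.6 in saline libraries. It fell by 0.40 ± 0.13 on the log2 scale (adjusted p = 0.0246), with 6 of 7 saline libraries below every young library. This call was lost without young replicate 1 (adjusted p = 0.0707). With the podocyte score as a covariate, edgeR called 0 members higher and 0 lower with age (0 and 12 at an unadjusted p under 0.05). The log2 difference of Slc22a21 was then 0.28 (edgeR adjusted p = 0.682). Since this score did not overlap between young and saline libraries, the fit cannot tell it from the group.

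The renal transporters with the highest levels did not pass the test with age. On the log2 scale, with SE, the differences of saline minus young were −0.40 ± 0.30 for Slc22a12, −0.44 ± 0.30 for Slc22a6 and −0.10 ± 0.30 for Slc22a8, with adjusted p of 0.347, 0.302 and 0.843. For the cation transporters they were −0.34 ± 0.28 for Slc22a2 (adjusted p = 0.411) and −0.14 ± 0.26 for Slc47a1 (0.732). For Slc22a5 the difference was −0.12 ± 0.22 (0.736). Among the Slco genes it was −0.65 ± 0.51 for Slco1a1 (0.385), 0.27 ± 0.34 for Slco4c1 (0.614) and −0.33 ± 0.15 for Slco3a1 (0.114). The 95% intervals were −1.02 to 0.14 for Slc22a6 and −0.98 to 0.18 for Slc22a12.

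Much of several of these differences rested on young replicate 1. Without it they were −0.04 for Slc22a12, −0.07 for Slc22a6, −0.01 for Slc22a2 and −0.12 for Slco1a1, and 0.058 for Slc22a5, 0.099 for Slc47a1 and 0.17 for Slc22a8, where the sign changed. None of these 7 was called without it either, with adjusted p from 0.704 to 0.983. Slco3a1 was called lower without young replicate 6 (−0.43, adjusted p = 0.0267).

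**Figure D3:**
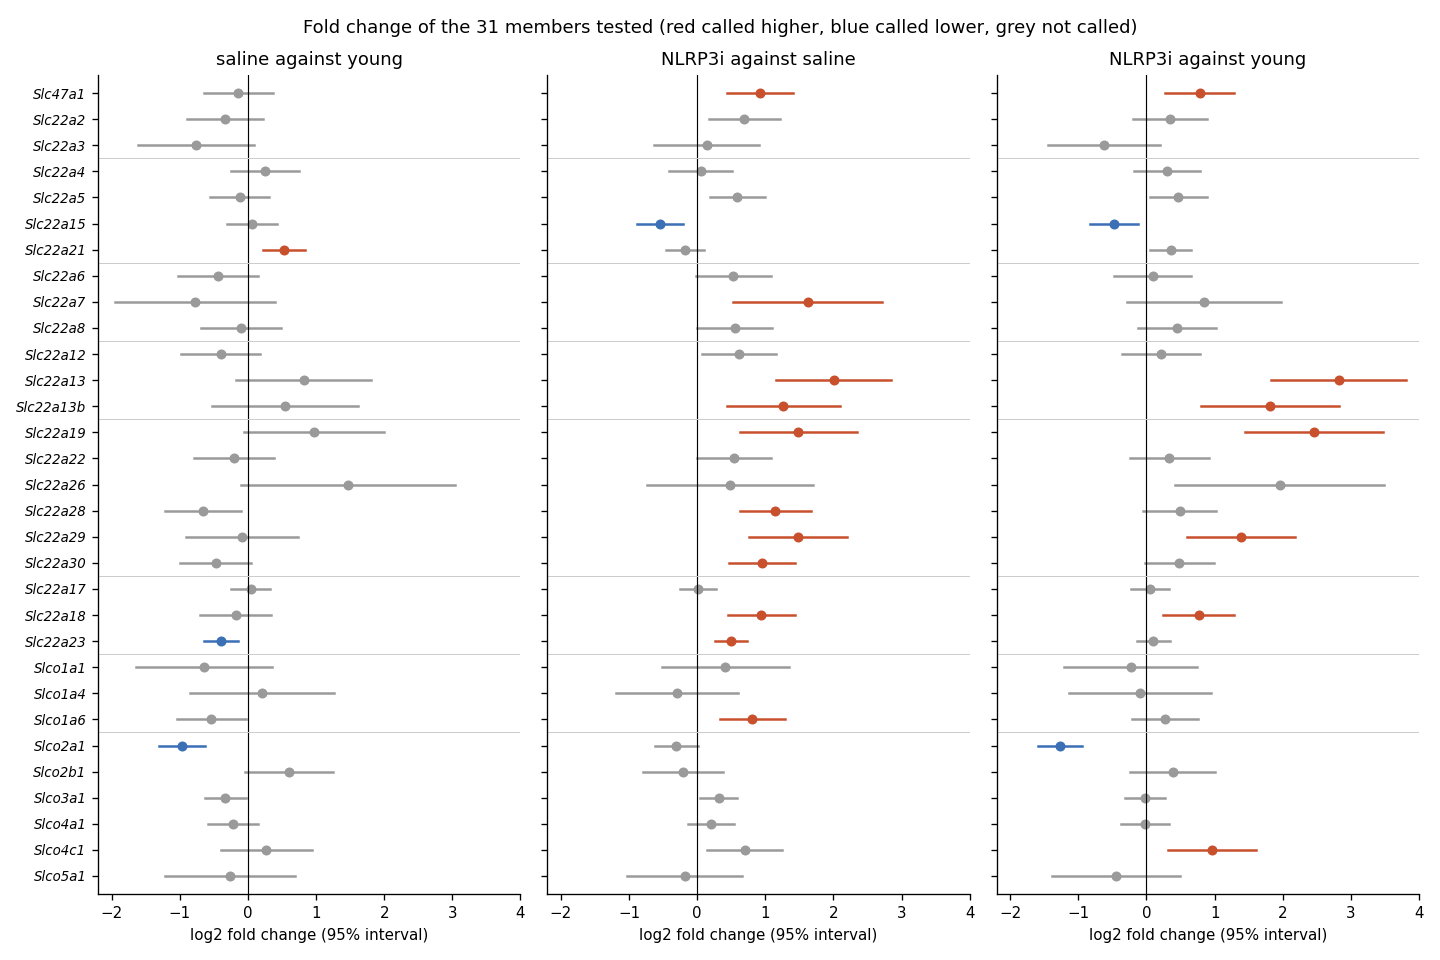
Log2 fold change of each of the 31 tested members with its 95% interval, in saline against young, NLRP3i against saline and NLRP3i against young, in the order of the role groups (thin lines separate groups). Red marks members called higher and blue members called lower; most points sit right of 0 in the middle panel, where 11 are red and 1 is blue.

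The second comparison set the 8 NLRP3i libraries against the 7 saline libraries and addressed the effect of MCC950 in middle-aged mice. The members moved mostly upward: 11 of 31 (35.5%) were called higher, where 11.9% of all genes tested were, and 1 of 31 (3.23%) was called lower, where 4.86% of all genes were. The median log2 fold change was 0.54 over the members and 0.00 over all genes tested, and 25 of 31 members were above 0. The rise was led by members of low level: Slc22a13 with a fold of 4.01, Slc22a7 with 3.08, Slc22a19 with 2.80 and Slc22a29 with 2.78. No member separated the groups without overlap, and the fold changes of the 19 members not called ran from −0.30 (Slco2a1) to 0.70 (Slco4c1) on the log2 scale.

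The proximal tubule markers moved with this result. Their summed level was 4091 CPM in saline and 7068 CPM in NLRP3i libraries (means), a ratio of 1.73 (exact two-sided permutation test, p = 0.00777, 0.0179 adjusted over 30 tests of marker sums), with 10 of the 16 called higher, 0 called lower in the edgeR fit and none at 0. The median log2 fold change of these markers was 0.95. With their mean log2 CPM as a covariate, edgeR called 0 of the 31 members higher and 2 lower, Slc22a4 and Slc22a17, while 2 were higher and 8 lower at a raw p below 0.05. With the podocyte score as the covariate instead, 15 were called higher and 2 lower. The count called higher was 7 without saline replicate 2, 3, 4 or 7 and without NLRP3i replicate 1.

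The share of counts on mitochondrial genes differed between these groups too. It was 63.0%, 68.6% and 79.2% (lowest, median and highest) in saline and 49.9%, 57.5% and 63.7% in NLRP3i libraries, almost without overlap. With the mitochondrial genes left out of the table and the library sizes, 10 members were called higher and 1 lower. Beyond that fit, the part of this difference in the result was not tested.

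Among the organic cation carriers, 1 of 3 tested members rose. For this count and those of the role groups below, 11.9% of all genes tested were called higher and 4.86% lower. Slc47a1, the efflux carrier on the urine side, had 43.9, 67.4 and 119 CPM in saline and 68.2, 141 and 187 in NLRP3i libraries (lowest, median and highest), and 6 of 8 NLRP3i libraries lay above every saline library. Its fold was 1.90 (log2 0.92 ± 0.24, adjusted p = 0.0155), the only called change of this role group.

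Slc22a2 was 0.69 ± 0.27 higher on the log2 scale but missed the threshold (adjusted p = 0.0786), and Slc22a3 (OCT3), at 0.0428 to 0.315 CPM in the NLRP3i libraries, was among the members not called. Slc22a2 passed the threshold without young replicate 1, without saline replicate 1 and without NLRP3i replicate 6 or 7, with the lowest adjusted p at 0.0369.

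Among the carnitine and zwitterion carriers, 1 of 4 tested members fell and none rose. Slc22a15 had 2.97, 3.21 and 3.63 CPM in saline libraries and 1.79, 2.16 and 2.98 in NLRP3i libraries. In 7 of 8 NLRP3i libraries it lay below every saline library, and it fell by 0.54 ± 0.17 on the log2 scale (adjusted p = 0.0340). The call was lost in 8 of the 21 fits that each left out 1 library, with adjusted p of at most 0.0683. Slc22a5 was 0.59 ± 0.21 higher (adjusted p = 0.0533), just outside the threshold, and passed it in 4 of those 21 fits.

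Among the organic anion uptake carriers, 1 of 3 rose. Slc22a7 (OAT2) had 0.499, 1.10 and 2.21 CPM in saline libraries and 0.970, 2.96 and 10.5 in NLRP3i libraries. Only 4 of 8 NLRP3i libraries lay above every saline library, and the fold of 3.08 (log2 1.62 ± 0.56) passed narrowly (adjusted p = 0.0498). The call was lost in 15 of the 21 fits that each left out 1 library, with adjusted p of up to 0.134.

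The better known pair did not pass. Slc22a6 had 76.9, 119 and 172 CPM in saline and 94.995, 179 and 251 in NLRP3i libraries, a difference of 0.53 ± 0.28 on the log2 scale (adjusted p = 0.201). Slc22a8 had 53.7, 128 and 183 CPM in saline and 78.4, 175 and 234 in NLRP3i libraries, a difference of 0.55 ± 0.28 (adjusted p = 0.182). The groups overlapped widely for both genes, and the 95% intervals (−0.02 to 1.08 for Slc22a6 and 0.0022 to 1.09 for Slc22a8) included a doubling.

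Among the urate and apical anion exchangers, 2 of 3 tested members rose, and as these share transcript sequence their calls may not be separate. Slc22a13 (OAT10), a urate and nicotinate exchanger, had 0.155, 0.955 and 2.28 CPM in saline libraries and 2.10, 2.94 and 9.17 in NLRP3i libraries, with 6 of 8 above every saline library. Its log2 difference of 2.00 ± 0.43 was the largest of any member (adjusted p = 0.00590). Its pseudogene neighbour Slc22a13b, which shares its sequence, rose by 1.27 ± 0.42 (adjusted p = 0.0444), at 0.0387 to 0.429 CPM in saline and 0.216 to 1.24 CPM in NLRP3i libraries.

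Slc22a12, the most abundant member, was 0.61 ± 0.28 higher on the log2 scale without passing the test (adjusted p = 0.135), at 92.4, 151 and 234 CPM in saline and 151, 217 and 415 in NLRP3i libraries. The call of Slc22a13b was lost in 12 of the 21 fits that left out 1 library, while that of Slc22a13 was kept in all 21.

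The rodent anion cluster held the most rises, 4 of 6 tested members, where 11.9% of all genes tested rose. Slc22a28 and Slc22a30 share transcript sequence, so their calls may not be separate. Slc22a28 had 10.2, 13.3 and 21.3 CPM in saline and 16.3, 29.7 and 54.4 in NLRP3i libraries, and rose by 1.15 ± 0.27 on the log2 scale (adjusted p = 0.00865). Its near copy Slc22a30 had 10.98, 12.5 and 20.5 CPM in saline and 14.5, 26.8 and 44.1 in NLRP3i libraries, and rose by 0.95 ± 0.25 (adjusted p = 0.0148). For both, 6 of 8 NLRP3i libraries lay above every saline library.

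Slc22a29, the third of the close copies by promoter, had 0.309, 0.643 and 1.20 CPM in saline and 1.11, 1.40 and 4.42 in NLRP3i libraries, and rose by 1.47 ± 0.37 (adjusted p = 0.0122). Slc22a19 (OAT5), which carries steroid sulfates, had the largest called change of the cluster, 1.49 ± 0.44 (adjusted p = 0.0257). Its levels were 0.354, 0.580 and 3.12 CPM in saline and 1.28, 2.08 and 6.91 in NLRP3i libraries. Saline replicate 5 (3.12 CPM) stood far above the other saline libraries, and only 2 of 8 NLRP3i libraries exceeded it. Without that library the log2 difference of Slc22a19 was 2.17 (adjusted p = 0.00214). Its call was lost in 5 of the 21 fits that each left out 1 library, with the highest adjusted p, 0.0691, and a difference of 1.15 without NLRP3i replicate 1.

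Slc22a26 was 0.49 ± 0.62 higher and not called (adjusted p = 0.630), at 0 to 1.64 CPM in saline and 0.171 to 1.81 CPM in NLRP3i libraries. Slc22a22, a prostaglandin-specific carrier on chromosome 15 that was grouped with these genes, was 0.54 ± 0.28 higher and not called (adjusted p = 0.190).

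Of the other Slc22 genes, Slc22a18 rose by 0.94 ± 0.25 on the log2 scale (fold 1.92, adjusted p = 0.0160). It had 22.3, 42.6 and 58.7 CPM in saline and 36.5, 77.6 and 108.9 in NLRP3i libraries, and 7 of 8 NLRP3i libraries lay above every saline library. Slc22a23, which had fallen with age, rose by 0.50 ± 0.12 (adjusted p = 0.00952), to 26.5, 38.2 and 48.7 CPM. Slc22a23 was the only member called in opposite directions in the age and the MCC950 comparison, which share the saline libraries. Slc22a17, a receptor for lipocalin, stood at 0.02 ± 0.13 (adjusted p = 0.953).

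Of the Slco1 genes, 1 of 3 tested members rose. Slco1a6 had 10.96, 14.4 and 23.1 CPM in saline and 14.4, 28.1 and 40.1 in NLRP3i libraries, with 6 of 8 above every saline library, and rose by 0.81 ± 0.24 on the log2 scale (adjusted p = 0.0266). Slco1a1, a carrier of steroid conjugates known for its dependence on androgens in mouse kidney, differed by 0.41 ± 0.48 (adjusted p = 0.593). It was spread widely within the NLRP3i group, from 3.97 to 40.8 CPM, with 4 libraries above and 3 below all saline libraries. The call of Slco1a6 was lost in 5 of the 21 fits that left out 1 library.

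None of the 6 other Slco genes tested passed in either direction in this comparison (edgeR; at an unadjusted p under 0.05 were Slco3a1 and Slco4c1, both higher). Slco4c1, the basolateral carrier of thyroid hormone and digoxin, was 0.70 ± 0.28 higher on the log2 scale (adjusted p = 0.0954), and Slco3a1 was 0.31 ± 0.14 higher (adjusted p = 0.133).

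**Figure D4:**
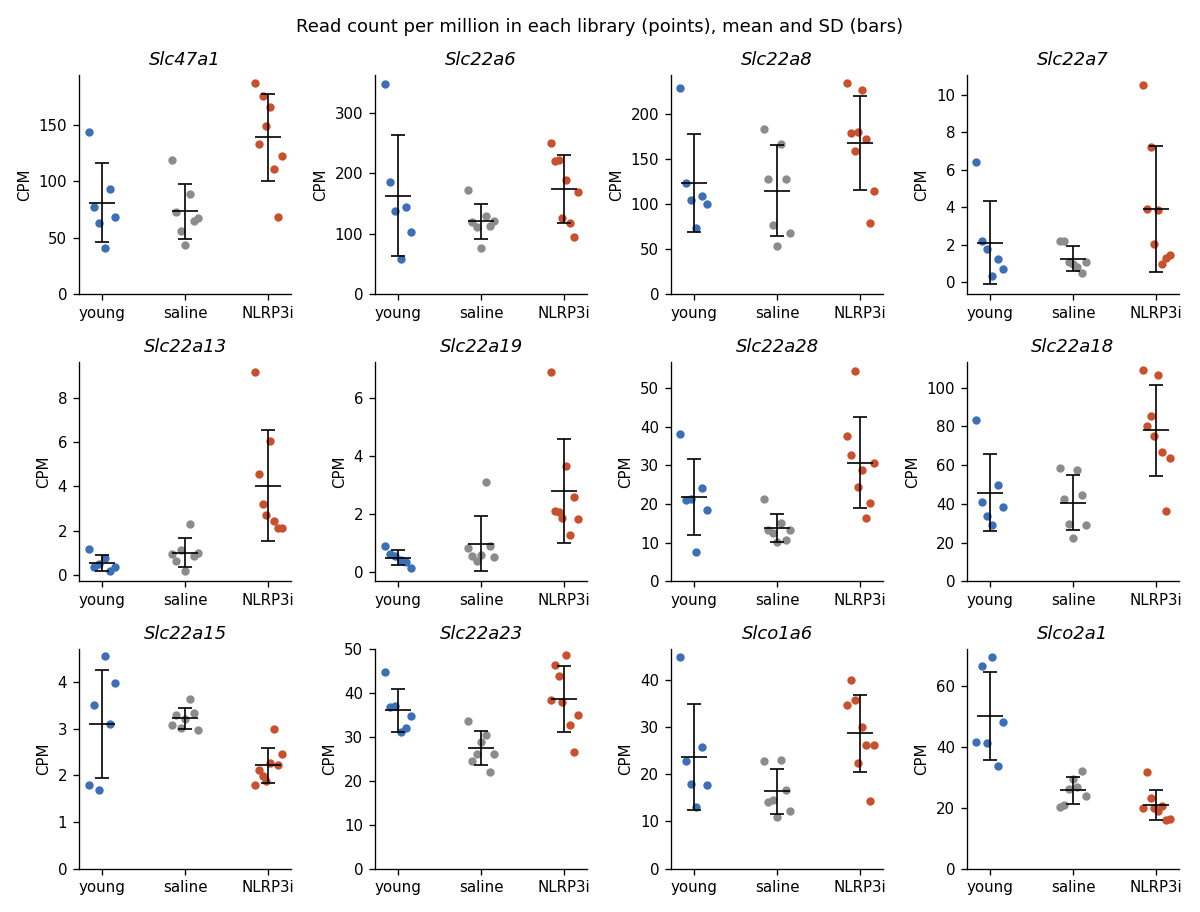
CPM of 12 members in each library (points) with the mean and SD of each group (bars), on linear axes that start at or just below 0. NLRP3i libraries reach above the saline range for 6 to 7 of 8 mice in Slc47a1, Slc22a13, Slc22a28, Slc22a18 and Slco1a6, and young libraries lie above all others for Slco2a1.

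The third comparison set the 8 NLRP3i libraries against the 6 young libraries. It showed 7 of 31 members (22.6%) higher, where 21.8% of all genes tested were, and 2 of 31 (6.45%) lower, where 16.5% of all genes were. The members called higher were Slc22a13, Slc22a13b, Slc22a18, Slc22a19, Slc22a29, Slc47a1 and Slco4c1, and those called lower were Slco2a1 and Slc22a15. The share called higher was close to that of all genes. The count depended on young replicate 1, without which 14 were called higher, and on young replicates 4 and 6, without either of which 4 were.

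Slc22a13 and Slc22a19 separated NLRP3i from young libraries completely, as did Slco2a1 in the other direction. How many of all genes tested did so was not counted, so no weight is put on this. Slc22a13 had 0.168, 0.409 and 1.17 CPM in young libraries, below all of the 8 NLRP3i libraries, and a fold of 7.06 (log2 2.82 ± 0.50, adjusted p = 0.000231). Slc22a19 had 0.125, 0.475 and 0.896 CPM in young libraries, and a fold of 5.50 (log2 2.46 ± 0.52, adjusted p = 0.00103). Both were also called with the proximal tubule score as a covariate, as was Slco2b1. With the podocyte score as the covariate neither was, at 1.53 for Slc22a13 (edgeR adjusted p = 0.327) and 0.59 for Slc22a19 (0.715). In that fit edgeR called 0 members higher and 0 lower (1 and 1 at an unadjusted p under 0.05). The podocyte score did not overlap between young and NLRP3i libraries, so that fit cannot tell it from the group. In saline against young the differences of Slc22a13 and Slc22a19 were 0.82 ± 0.50 and 0.97 ± 0.52 and did not pass.

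Slc47a1 rose by 0.78 ± 0.26 on the log2 scale against young (adjusted p = 0.0210) and Slc22a18 by 0.76 ± 0.26 (0.0266), at 29.2, 39.6 and 83.4 CPM in young libraries for the last. The highest young value of both was that of replicate 1. The call of Slc47a1 was lost in 3 and that of Slc22a18 in 6 of the 21 fits that left out 1 library, with adjusted p of up to 0.0643 and 0.0793. Slc22a29 rose by 1.38 ± 0.40 (0.0108), Slc22a13b by 1.81 ± 0.52 (0.00907) and Slco4c1 by 0.96 ± 0.33 (0.0256). Slco4c1 had 0.0836, 0.245 and 0.291 CPM in young and 0.201, 0.434 and 0.728 in NLRP3i libraries, and 6 of 8 NLRP3i libraries lay above every young library. Its call was lost in 3 of those 21 fits. Slc22a15 fell by 0.48 ± 0.18 (0.0415), with every NLRP3i library inside the young range of 1.68 to 4.56 CPM, and lost its call in 10 of the 21 fits that left out 1 library.

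The remaining transporters given in every comparison did not pass the test against young with all libraries: 0.21 ± 0.29 for Slc22a12, 0.09 ± 0.29 for Slc22a6, 0.45 ± 0.29 for Slc22a8, 0.35 ± 0.28 for Slc22a2, 0.47 ± 0.22 for Slc22a5, −0.23 ± 0.50 for Slco1a1 and −0.02 ± 0.15 for Slco3a1 on the log2 scale. Their adjusted p ran from 0.0910 (Slc22a5) to 0.923 (Slco3a1). Without young replicate 1, Slc22a5 (0.65, adjusted p = 0.0202), Slc22a2 (0.68, 0.0372) and Slc22a8 (0.72, 0.0472) were called higher, Slc22a12 (0.57, 0.0829) and Slc22a6 (0.46, 0.155) were not, and Slco1a1 (0.29) and Slco3a1 (0.096) changed sign. Slc22a5 was also called without NLRP3i replicate 7 (adjusted p = 0.0352). With the proximal tubule score as a covariate, 3 members were called higher and 7 lower in this comparison, the latter including Slc22a6 (−0.55), Slc22a8 (−0.35) and Slc22a12 (−0.45).

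**Figure D5:**
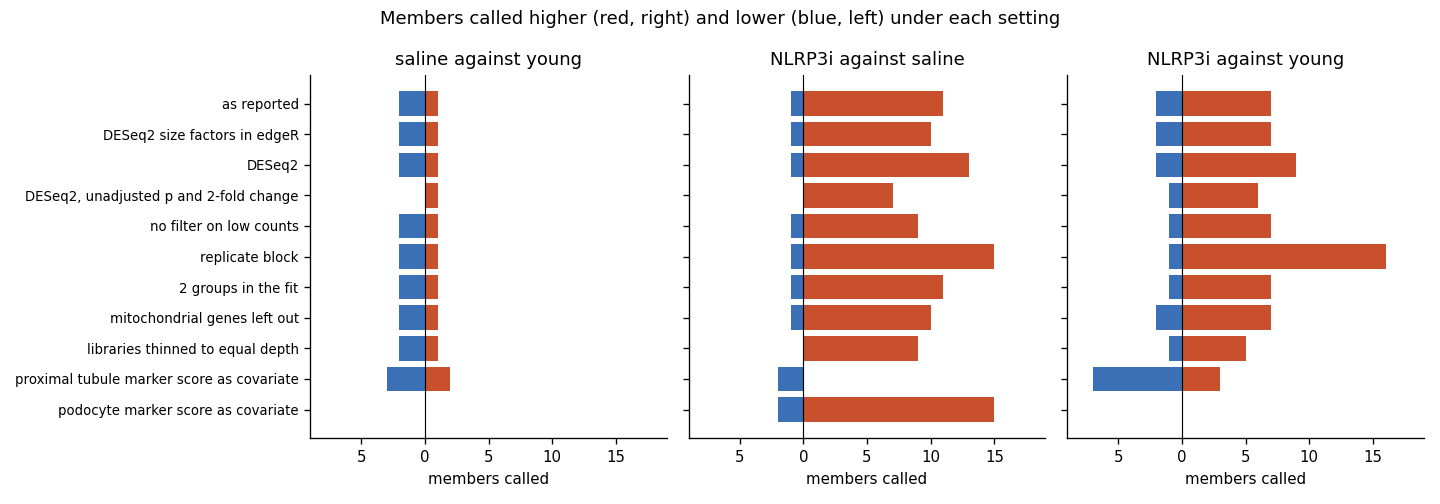
Number of the members called higher (red bars to the right) and lower (blue bars to the left) in each comparison, as reported and under each alternative setting. In NLRP3i against saline, 11 members are called higher as reported and 7 to 15 under the other settings apart from the proximal tubule score as covariate, which leaves 0.

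The wider apparatus of renal organic ion transport was read from a list of 17 genes, of which 16 were tested. With age 0 rose (edgeR adjusted p) and 1 fell, where 12.2% and 12.4% of all genes tested did. The gene that fell was the scaffold gene Slc9a3r2 (−1.27 ± 0.16, edgeR adjusted p = 1.98e-05), from a mean of 85.8 CPM in young to 35.7 CPM in saline libraries. The saline sums of podocyte, endothelial and proximal tubule markers were 0.377, 0.461 and 0.856 of young, and their part was not tested. In NLRP3i against saline 7 of 16 rose and 1 fell, where 11.9% and 4.86% of all genes did. The proximal tubule markers, whose sum was 1.73 times as high in the NLRP3i libraries, moved with this count, and their part in it was not tested. The brush-border scaffold Pdzk1, which anchors Slc22a12 among others, rose by 1.17 ± 0.21 (adjusted p = 0.00183), from 94.02 to 211 CPM. The nuclear factor gene Hnf4a rose by 1.06 ± 0.20 (adjusted p = 0.00300), from 99.5 to 208 CPM.

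Of the efflux pumps, Abcc2 rose by 0.78 ± 0.25 (adjusted p = 0.0397) and Abcg2, a urate exporter, by 0.71 ± 0.20 (0.0221), while Abcc4, Abcb1a and Abcb1b stood between 0.05 and 0.07 and were not called. The phosphate and urate carrier Slc17a1 rose by 0.79 ± 0.23 (0.0229), Slc51b by 0.91 ± 0.31 (0.0478) and the scaffold Slc9a3r1 by 0.55 ± 0.12 (0.00602). The urate carrier Slc2a9 fell by 0.50 ± 0.15 (0.0266). The dicarboxylate carrier Slc13a3, which feeds the exchange of Slc22a6 and Slc22a8, was 0.54 ± 0.25 higher and not called (0.147).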

How the data were processed

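The authors used Trim Galore for trimming, Bowtie2 for alignment to mm10 (GRCm38) and featureCounts for counting. The deposited count tables hold raw whole-number counts for 27179 Entrez Gene numbers in 21 libraries. Annotation release, strand setting, read length and tool versions are not given in the sources used here. The authors' DESeq2-normalized table was not used, because raw counts suit the test and 1 saline library has no column there.

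Symbols came from RefSeq (25275 genes) and GENCODE (18). CPM is scaled by TMM factors. The main test was that of edgeR 4.0.16, run in R 4.3.3 (TMM, filterByExpr by group, quasi-likelihood F test, all 3 groups in one fit) on 16377 genes, and called at a Benjamini-Hochberg adjusted p under 0.05. ± is the standard error, and 95% intervals are 1.96 standard errors. DESeq2 1.42.0 and the settings of the closing section are alternatives. The workflow was tested on simulated data. Marker sums used exact permutation tests (scipy 1.17.1). Precision is limited by 6 to 8 mice per group and, for members of few reads, by counting error.

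Fold changes are given for each member called and, in every comparison, for Slc22a6, Slc22a8, Slc22a2, Slc22a5, Slc22a12, Slc47a1, Slco1a1, Slco4c1, Slco2a1 and Slco3a1. Levels per library are given for members with the largest called change in their role group. Slc22a3, Slc22a7, Slc22a17, Slc22a22 and Slc22a26 outside that rule, and some further levels, were added after their values were seen. One member that meets the rule, and some genes of the lists, are not reported here. Members, lists and tests were chosen with earlier results of these data known.

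No 2 libraries were copies (lowest chi-square per degree of freedom 14.7). Same-numbered libraries of different groups were not treated as pairs.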

Additional observations from a re-analysis of the deposited data

Results flagged for a closer look

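Single libraries that stood far from the rest of their group were looked for with Dixon's ratio in 93 groups of member levels and 9 of other values, and 11 were found. Chance flags about 1 in 20 groups, and members of 1 library are not independent of each other. In the young group, replicate 1 was far above the others in Slc22a2 (68.1 CPM), Slc22a5 (82.1 CPM), Slc22a7 (6.40 CPM), Slc22a8 (228 CPM) and in the sum of the members (1850.3 CPM). The same library lay above every other young library in 23 of the 37 members. Young replicate 6 was far below the others in Slco4c1 (0.0836 CPM).

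In the saline group, replicate 5 was high in Slc22a19 (3.12 CPM) and replicate 1 in Slc22a28 (21.3 CPM). In the NLRP3i group, replicate 1 was high in Slc22a19 (6.91 CPM), replicate 5 in Slc22a29 (4.42 CPM) and replicate 2 in Slco2a1 (31.9 CPM).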

How the results depend on the processing

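Of 1465 alternative values of 49 fold changes, 1288 kept their direction and side of the threshold, 30 gained a call, 41 changed sign and the others lost the call. Where the cause is not given below, it was not tested. The covariates are themselves marker genes that differ between the groups in some comparisons, and a fit with one removes group differences that move with it. The podocyte score of young libraries did not overlap that of saline or NLRP3i libraries. The proximal tubule sum in saline libraries was 0.856 of young (exact permutation test, unadjusted p = 0.554). The podocyte sum in NLRP3i libraries was 1.13 times that in saline (exact permutation test, unadjusted p = 0.189), with 5 of 16 markers called higher and 1 lower.

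Counts of calls. With the proximal tubule score as covariate, 2 members were called higher in saline against young, 0 higher and 2 lower in NLRP3i against saline, and 3 higher and 7 lower in NLRP3i against young. With the podocyte score, the counts were 0 higher and 0 lower with age (edgeR; 0 and 12 at an unadjusted p under 0.05), 2 lower in NLRP3i against saline, and 0 higher and 0 lower against young (1 and 1 unadjusted). The study's rule (DESeq2, unadjusted p under 0.05 and over 2-fold) gave 0 lower with age, 7 higher and 0 lower in NLRP3i against saline, and 1 lower against young. In NLRP3i against young 1 was called lower with no count filter, with 2 groups in the fit and in libraries thinned to equal depth. Thinning left 0 lower in NLRP3i against saline, with 1 unadjusted and fewer members tested (26).

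Left-out libraries. Members lower ranged from 1 to 3 with age (1 without young replicate 1), from 0 to 1 in NLRP3i against saline and from 1 to 2 against young. Members higher ranged from 7 to 13 in NLRP3i against saline and from 4 to 14 against young.

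Replicate block. Same-numbered libraries correlated at −0.061 to 0.35 (6 pairs), −0.14 to 0.33 (7) and −0.013 to 0.40 (6). Replicate 1 stood at 0.35, 0.29 and 0.40 in these comparisons. The labels name no pairs of mice, and these values cannot show whether libraries of the same number shared a batch. With the number as a block, 1 member was called higher and 2 lower with age, 15 and 1 in NLRP3i against saline, and 16 and 1 against young. Under the block the log2 differences of Slc22a8 with age (0.020), Slco1a1 in NLRP3i against saline (−0.11) and Slco3a1 against young (0.050) changed sign.

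Changes of sign with the proximal tubule score (log2). With age: Slc22a5 0.020, Slc47a1 0.089 and Slc22a8 0.083. In NLRP3i against saline: Slc22a5 −0.16, Slc22a2 −0.26, Slc22a7 −0.18, Slc22a12 −0.35, Slc22a8 −0.43, Slc22a6 −0.47, Slco1a1 −0.76, Slco1a6 −0.091, Slco3a1 −0.059 and Slc22a18 −0.0062. In NLRP3i against young: Slc22a5 −0.14, Slc22a2 −0.30, Slc22a12 −0.45, Slc22a8 −0.35 and Slc22a6 −0.55. With the podocyte score: Slco4c1 −0.038 with age, and Slc22a5 −0.18, Slc22a2 −0.34, Slc22a12 −0.47, Slc22a8 −0.37, Slc22a6 −0.45 and Slc22a18 −0.093 in NLRP3i against young.

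Over all left-out libraries, sign changes fell on values that were not called. With age the log2 fold changes ran from −0.26 to 0.058 for Slc22a5, from −0.31 to 0.099 for Slc47a1 and from −0.26 to 0.17 for Slc22a8. In NLRP3i against young they ran from −0.13 to 0.46 for Slc22a6, from −0.49 to 0.29 for Slco1a1 and from −0.15 to 0.096 for Slco3a1.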

Other observations

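The 6 members too low to be tested gave these reads, which are raw sums over groups that differ in size and depth. They do not compare levels between groups. Slc22a27, between Slc22a26 and Slc22a28 in the chromosome 19 cluster, had 8 reads over the young, 23 over the saline and 65 over the NLRP3i libraries. DESeq2, which tested it, called it higher in NLRP3i against young. Slc47a2 (MATE2), which lies beside Slc47a1, had 14, 33 and 30 reads over the same groups, against 14430, 30102 and 63660 reads of Slc47a1. As mean CPM, Slc47a2 stood at 0.087, 0.076 and 0.069 and Slc47a1 at 80.9, 73.2 and 139. Slco1a5 had 7, 17 and 13 reads and Slco1c1, a thyroid hormone carrier of brain vessels, had 3, 10 and 6. Slc22a14, known from testis, had 0, 5 and 6 reads, and Slco1b2, known from liver, had 0, 1 and 1.

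Slco2b1, a carrier of broad substrate range, ran against the tubule members between libraries of the young group. It was lowest there in replicate 1 (12.7 CPM), the library with the highest tubule marker sum, and highest in replicate 4 (72.4 CPM), the library with the lowest. Over the groups it had medians of 36.2 CPM in young, 55.5 in saline and 52.2 in NLRP3i libraries, and it was not called in any comparison by edgeR without a covariate and with all libraries and groups in the fit. The 8 macrophage markers had their lowest young sum in replicate 1 (391 CPM) and their highest in replicate 4 (1930 CPM). Whether these go together was not tested.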
